A study of Mus musculus with 4 samples.

Results

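The *Anxa1*+ injured neurons were the cells of 2 libraries from injured dorsal root ganglia (DRG) that carried *Sprr1a*, a marker of axonal injury, together with *Anxa1*, and that stayed under limits for *Crh* and *Ly6a*. A cell counted as a member when its *Sprr1a* level was above 1.718 CP10K (UMIs of a gene per 10000 UMIs of the cell), its *Anxa1* level at least 1 CP10K, its *Crh* level below 0.5 CP10K and its *Ly6a* level below 1 CP10K. Cells had to hold at least 1500 genes and 5000 UMIs, with at most 10% mitochondrial UMIs. By this rule 455 cells were members, 185 from Male-CCI and 270 from Female-CCI, out of 3879 *Sprr1a*+ cells and 7489 cells passing the limits in these 2 libraries. The whole series held 17836 cells passing the limits, of 23691 deposited. The other 3424 *Sprr1a*+ cells of the same libraries were the comparison group. Because the rule used measured levels of *Sprr1a*, *Anxa1*, *Crh* and *Ly6a*, these 4 genes are described here and not tested.

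The series measured transcripts of single sorted cells by 10x Genomics 3′ sequencing in 4 libraries, a male and a female one after each surgery (Male-CCI and Female-CCI, Male-Sham and Female-Sham). CCI is a chronic constriction injury of the sciatic nerve, here on both sides, and the sham groups had surgery without constriction. All animals were C57BL/6 mice of 7 to 8 weeks that carried 1 allele of *Pirt*-EGFPf, in which a membrane-bound GFP replaces the coding sequence of *Pirt* and marks the cells in which the *Pirt* promoter is active. Lumbar L4-5 ganglia were taken at day 7, and GFP+ cells of 20 ganglia from 5 mice were pooled into each library. Animals of 1 litter received the same surgery, so litter and surgery cannot be told apart, and the sort may leave neurofilament-rich (NF) neurons somewhat underrepresented. Each group had 1 male and 1 female library. The p-values below of the fits with the library as a block rest on how far differences between populations varied between these 2 libraries, which differ in sex. That spread was shared across genes, so small p-values lean on the spread of all genes.

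A peripheral nerve injury makes sensory neurons shut down much of the program that marks their subtype and switch on regeneration-associated genes such as *Atf3*, *Sox11*, *Gal* and *Sprr1a*, a small proline-rich protein that promotes neurite outgrowth. Annexin A1, the product of *Anxa1*, binds membrane phospholipids in the presence of calcium, is induced by glucocorticoids and limits leukocyte recruitment through formyl peptide receptors. *Crh* encodes corticotropin-releasing hormone and *Ly6a* a GPI-anchored surface protein, and both marked other groups of injured cells in these libraries.

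The libraries shared cell barcodes. Of the deposited cells, 564 in Male-CCI and 954 in Female-CCI had a barcode that also occurred in another library, and the 2 CCI libraries had 452 barcodes in common. The shared barcodes of Male-CCI had a median of 80336 UMIs against 47700 for its other cells, and those of Female-CCI 624.5 against 35797. Among the members 21 of 185 in Male-CCI and 3 of 270 in Female-CCI carried such a barcode. Without these cells the members were 10.5% and 12.7% of *Sprr1a*+ cells, as with them. Members of Male-CCI had a median of 62764 UMIs per cell (other *Sprr1a*+ cells 59854), and members of Female-CCI 46294 (others 46696), so depth did not separate the populations. The automatic threshold of Scrublet marked between 0 and 120 cells of a library as doublets and had not worked, so doublets were kept. The 10% of cells with the highest scores made up 7.03% and 11.5% of members, against 11.7% and 12.8% of the other *Sprr1a*+ cells.

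*Anxa1* (ENSMUSG00000024659, GRCm38 chr19:20373428-20390944, minus strand) was absent from most *Sprr1a*+ cells and high in some. Under the *Crh* and *Ly6a* limits, 1014 *Sprr1a*+ cells of Male-CCI and 1132 of Female-CCI had no *Anxa1* UMI at all. Members reached a median of 5.05 CP10K in Male-CCI, with quartiles of 2.90 and 7.74 and a maximum of 20.1. In Female-CCI the median was 5.02, the quartiles 2.12 and 7.70, and the maximum 34.4 CP10K. These medians rested on 28 and 20 *Anxa1* UMIs per cell, and 4 and 9 members rested on a single UMI. Just inside the limit the lowest members had 1.01 and 1.00 CP10K. Just outside it the highest cells had 0.987 and 0.980 CP10K, and 16 and 22 cells lay between 0.75 and 1 CP10K.

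**Figure D1:**
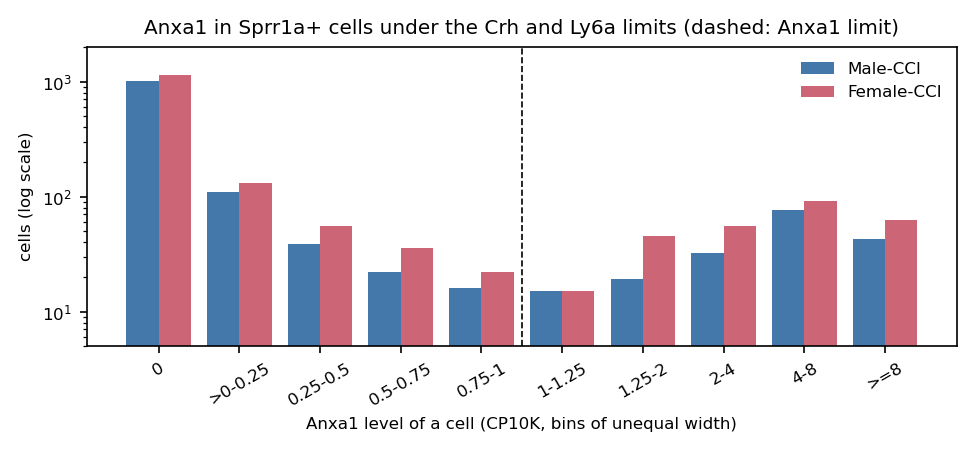
Number of *Sprr1a*+ cells under the *Crh* and *Ly6a* limits (log scale) by their *Anxa1* level in CP10K, in bins of unequal width, for Male-CCI and Female-CCI; the dashed line is the *Anxa1* limit of the rule. Most cells have no *Anxa1* UMI (1014 and 1132), and the bins on either side of the limit hold few cells (16 and 22 below it, 15 and 15 above it).

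*Sprr1a* (ENSMUSG00000050359, chr3:92483952-92485895, minus strand) was similarly high in members and in the cells they were compared with. The summed level was 3694 counts per 1000000 UMIs (CPM) in members of Male-CCI and 2719 CPM in those of Female-CCI, against 3421 and 2699 CPM in the other *Sprr1a*+ cells. The upstream sequences of the 2 genes that define the population are given because they differ in a motif of AP-1, the family of Jun, Fos and ATF factors. They are the 250 bases before the RefSeq start site (GRCm38.p6, minus strand, chr3:92485882-92486131 and chr19:20390672-20390921), with matches to TGANTCA in capitals. By the GENCODE gene positions given above, the *Anxa1* window lies wholly inside the gene and the *Sprr1a* window overlaps the gene's start. The word upstream therefore holds for the RefSeq start sites only.
*Sprr1a*: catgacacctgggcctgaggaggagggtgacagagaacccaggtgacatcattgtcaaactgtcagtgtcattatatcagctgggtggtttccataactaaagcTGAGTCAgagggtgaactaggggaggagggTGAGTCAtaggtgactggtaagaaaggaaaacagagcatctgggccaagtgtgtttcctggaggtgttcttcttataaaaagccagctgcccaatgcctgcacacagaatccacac
*Anxa1*: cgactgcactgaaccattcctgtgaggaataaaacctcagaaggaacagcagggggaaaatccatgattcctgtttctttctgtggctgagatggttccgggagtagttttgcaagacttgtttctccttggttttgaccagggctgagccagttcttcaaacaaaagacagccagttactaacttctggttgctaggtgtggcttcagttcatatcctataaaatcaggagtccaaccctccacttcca
The *Sprr1a* window held 2 matches, starting 146 and 116 bases before the start site, and the *Anxa1* window held 0. The windows of *Cryba2* and *Tgfbi*, searched in the same way, held 1 and 0. The palindromic motif occurred in 6.75% of the 32851 RefSeq windows of this length. A match is a stretch of letters and not a binding site, and its absence from this window says nothing of the factor.

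*Anxa1* was found mostly in *Sprr1a*+ cells. It reached 1 CP10K in 14.7% of *Sprr1a*+ cells of Male-CCI (259 of 1760; 95% exact binomial interval, 13.1 to 16.5%) and in 17.5% of those of Female-CCI (371 of 2119; 15.9 to 19.2%). Members, after the *Crh* and *Ly6a* limits, were 10.5% (9.12 to 12.0%) and 12.7% (11.4 to 14.2%) of *Sprr1a*+ cells, and 5.53% and 6.51% of all cells passing the limits. To compare cells at equal depth, each was thinned to 5000 UMIs. Then 14.4% and 16.6% of *Sprr1a*+ cells kept an *Anxa1* UMI, against 0.695% and 1.28% of *Sprr1a*- cells, and before thinning the shares were 28.3% and 32.6% against 3.73% and 5.57%. *Fabp7*-high cells, which carry a satellite glia marker, were taken as a level for free RNA, although their gate did not exclude *Sprr1a*+ cells. Of them 0 of 105 in Male-CCI had an *Anxa1* UMI, which allows a share of up to 2.86%. In Female-CCI 4 of 111 did (3.60%), and the median depths were 5254 and 5297 UMIs. After thinning 0 of 62 and 3 of 62 *Fabp7*-high cells (4.84%; 1.01 to 13.5%) kept one. Whether the *Fabp7*-high cells with *Anxa1* were *Sprr1a*+ was not examined, so they do not set a background level. The share in *Sprr1a*- cells was therefore not told apart from background. These intervals and limits cover counting error only.

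The sham libraries held few such cells. The same rule found 7 of 3907 cells in Male-Sham (0.179%) and 28 of 6440 in Female-Sham (0.435%), below both CCI libraries. Within the *Sprr1a*+ cells the share was alike: members were 9.72% of the 72 *Sprr1a*+ cells of Male-Sham (4.0 to 19.0%) and 12.1% of the 232 of Female-Sham (8.17 to 17.0%), intervals that hold both CCI values. *Sprr1a*+ cells made up 1.84% and 3.60% of cells in the sham libraries and 52.6% and 51.1% in the CCI libraries. Since the rule was set on the CCI libraries, these shares are a description.

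*Crh* was more frequent among *Anxa1*+ than among other *Sprr1a*+ cells, and the rule set such cells aside. In Male-CCI 23.6% of *Anxa1*+ *Sprr1a*+ cells reached the *Crh* limit (18.5 to 29.2%), against 15.9% of those below the *Anxa1* limit (14.1 to 17.9%). In Female-CCI the shares were 21.8% (17.7 to 26.4%) and 15.6% (13.9 to 17.4%). For *Ly6a* the shares went in opposite directions, with 5.41% against 4.13% in Male-CCI and 5.66% against 6.35% in Female-CCI. The intervals cover the counting of cells within a pooled library only, and these shares of rule genes are a description. The summed *Anxa1* level was 138 and 178 CPM in the *Crh*+ cells and 147 and 106 CPM in the *Ly6a*+ cells, against 625 and 607 CPM in members and 5.18 and 6.10 CPM in the remaining *Sprr1a*+ cells. *Anxa1* was therefore not confined to the members.

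Summed over the members, neuronal markers were at high levels, which does not class each single cell. *Tubb3*, the neuronal beta tubulin, was summed to 6452 and 5745 CPM in members of Male-CCI and Female-CCI, and *Uchl1*, a neuronal deubiquitinase, to 4361 and 4222 CPM. None of the 5 neuronal markers was called against the other *Sprr1a*+ cells by the test described further on, although *Snap25*, a protein of synaptic vesicle fusion, was slightly lower (179 and 165 CPM against 224 and 202 CPM, log2 fold change -0.29, edgeR adjusted p = 5.73e-08), short of the fold limit. Of the further markers given for this population, *Cryba2* (ENSMUSG00000006546, chr1:74889934-74893143, minus strand), which encodes a beta crystallin, had 111 and 119 CPM in members against 92.1 and 95.4 CPM in the other *Sprr1a*+ cells. *Tgfbi* (ENSMUSG00000035493, chr13:56609523-56639562, plus strand), an extracellular matrix protein induced by TGF-beta, had 84.0 and 81.8 CPM against 64.6 and 60.9 CPM. Both were a little higher in members in both libraries without overlap, by 0.31 ± 0.04 and 0.42 ± 0.05 on the log2 scale (± SE), below the fold limit for a call. In *Sprr1a*- cells *Cryba2* had 2.62 and 5.38 CPM and *Tgfbi* 2.42 and 2.23 CPM, far below either *Sprr1a*+ population.

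Transcripts of other cell types were present in both populations, and the sort was for GFP alone. The 6 satellite glia markers summed to 1099 and 1376 CPM in members and to 1178 and 1285 CPM in the others, and 0 of 6 were called. Schwann cell markers summed to 30.4 and 33.7 CPM against 37.2 and 34.2 CPM, and immune markers to 11.4 and 15.9 CPM against 16.8 and 13.1 CPM. Fibroblast markers summed to 10.3 and 11.3 CPM against 27.7 and 24.7 CPM, of which only *Dcn* was called, lower. *Dcn* alone gave 7.05 and 6.83 CPM of the member sums and 23.8 and 20.5 CPM of the others. It had 125 and 112 CPM in *Ly6a*+ cells and was a leading gene of a *Sprr1a*+ cluster led by *Tac1* and *Calca*. These sums are therefore no measure of fibroblast RNA. Endothelial markers summed to 2.59 and 2.66 CPM against 4.08 and 5.84 CPM, of which only *Flt1* was called, lower.

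For the comparison between members and other *Sprr1a*+ cells, UMIs were summed over the cells of each population in each library and compared by edgeR's quasi-likelihood test with the library as a block. A gene was called at a Benjamini-Hochberg adjusted p below 0.05 and an absolute log2 fold change above 0.5. Most genes that differed were lower in members. Of 15039 genes tested 642 were called, which is 4.27% of those tested, 102 of them higher in members (0.678%) and 540 lower (3.59%). The direction was the same in both libraries for 641 of the 642, which a call over both libraries largely requires. In sums of cells, fewer cells with a transcript and less of it per cell cannot be told apart. The count and its balance depended on the method and the cells: DESeq2 called 221 genes, the fit without the library block 343, sums of cells thinned to 5000 UMIs 120 (of 11369 tested), and the 3 clusters with most members 25, of which 14 were higher and 11 lower. Without the cells of shared barcodes 582 genes were called.

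**Figure D2:**
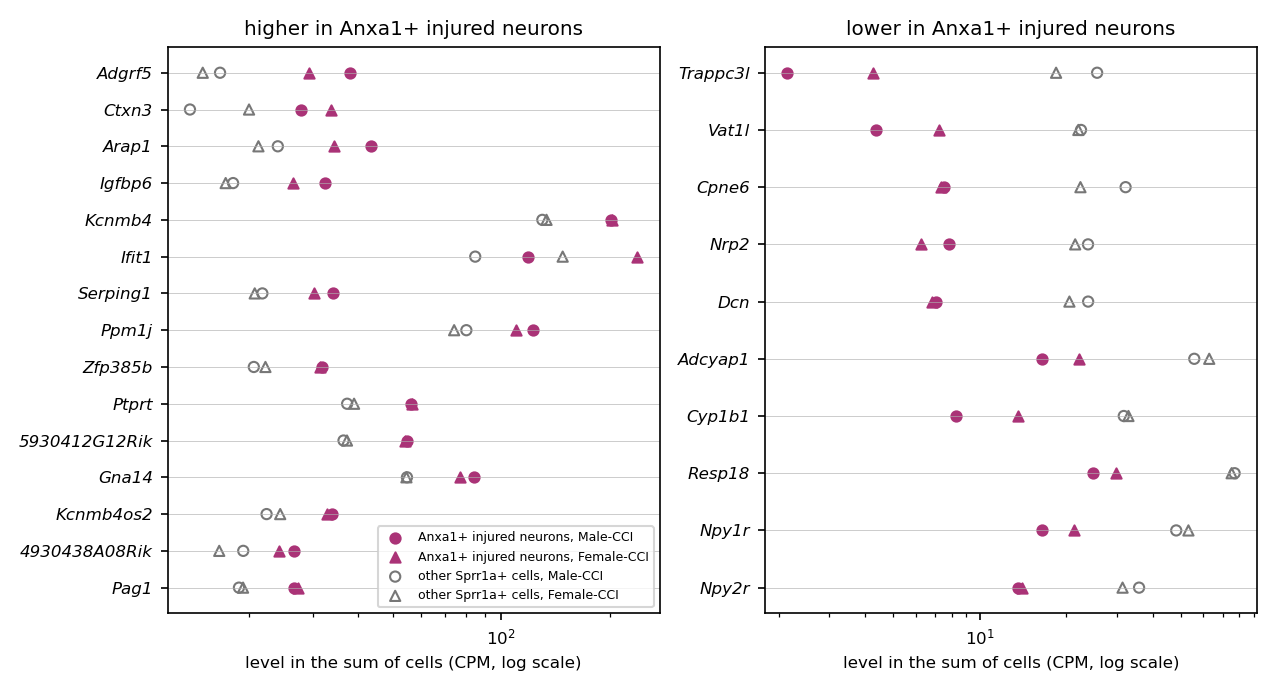
Levels in CPM (log scale) of the 15 genes higher and the 10 genes lower in members that the naming rule gave, with 1 point for each library and population (circles, Male-CCI; triangles, Female-CCI; filled, *Anxa1*+ injured neurons; open, other *Sprr1a*+ cells). For 24 of the 25 genes the 2 member values do not overlap the 2 values of the other *Sprr1a*+ cells, the exception being *Ifit1*. The genes were chosen by call, direction and fold change, so this separation follows largely from the choice.

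The genes higher in members were modestly so. The largest fold change among those reaching 20 CPM was that of *Adgrf5*, an adhesion G protein-coupled receptor, at 38.2 and 29.3 CPM in members against 16.6 and 14.9 CPM (log2 fold change 1.11 ± 0.08, adjusted p = 1.48e-11). *Ctxn3*, a small membrane protein of neurons, followed with 27.9 and 33.7 CPM against 13.7 and 20.0 CPM. *Arap1*, a GTPase-activating protein of Arf, had 43.6 and 34.4 CPM against 24 and 21.2 CPM. *Igfbp6*, which binds insulin-like growth factors, had 32.4 and 26.5 CPM against 18.0 and 17.2 CPM. Each of these, chosen by call and direction, was higher in members of both libraries than in either library's other cells.

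A pair of genes at the same place rose together. *Kcnmb4*, the beta4 subunit that modulates the calcium-activated BK potassium channel, had 202 and 203 CPM in members against 130.0 and 134 CPM (log2 fold change 0.64 ± 0.03, adjusted p = 5.80e-15). Its antisense neighbor *Kcnmb4os2* had 33.9 and 32.8 CPM against 22.3 and 24.4 CPM. The annotation places *Kcnmb4* at chr10:116417861-116473878 on the minus strand and *Kcnmb4os2* at chr10:116473163-116475319 on the plus strand, so the 2 genes overlap, and whether strand was used in counting is not given in the sources used here. By these positions and strands the overlap lies at the start of both genes, whereas 3′ sequencing reads mostly the other end. Whether reads of the overlap were split between the 2 genes was not tested.

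Among the other genes named for their fold change, *Ppm1j*, a protein phosphatase, had 122 and 110.2 CPM against 80.0 and 74.0 CPM, and *Gna14*, an alpha subunit of the Gq class, 84.3 and 76.7 CPM against 54.8 and 54.6 CPM. *Ptprt*, a receptor tyrosine phosphatase, had 56.3 and 56.5 CPM against 37.4 and 39.1 CPM. *Pag1*, a membrane adaptor that recruits the kinase Csk, had 26.6 and 27.4 CPM against 18.7 and 19.2 CPM. Of the rest, *Serping1*, the inhibitor of complement C1, *Zfp385b*, *5930412G12Rik* and *4930438A08Rik* rose by log2 fold changes between 0.52 and 0.61. All of these rose in both libraries, as the naming rule required.

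*Ifit1*, an interferon-induced RNA-binding protein, was the one named gene whose libraries overlapped. It had 119 CPM in members and 84.7 CPM in the others in Male-CCI, and 239 CPM in members and 148 CPM in the others in Female-CCI, so that within each library the members were higher (log2 fold change 0.62 ± 0.04, adjusted p = 5.98e-10). Few cells carried it. Only 31.9% and 42.6% of members had an *Ifit1* UMI, and the tenth of members with the highest level held 87.3% and 81.2% of the summed per-cell level. In the other *Sprr1a*+ cells the shares with a UMI were 30.3% and 42.4%. The gene has close copies in its cluster, among which the counting may split reads. Its upstream sequence (RefSeq, GRCm38.p6, chr19:34640639-34640888, plus strand) is shown since the interferon-stimulated response element is the textbook site of such genes, with matches in capitals to 2 GAAA blocks that lie 2 bases apart, on either strand.
*Ifit1*: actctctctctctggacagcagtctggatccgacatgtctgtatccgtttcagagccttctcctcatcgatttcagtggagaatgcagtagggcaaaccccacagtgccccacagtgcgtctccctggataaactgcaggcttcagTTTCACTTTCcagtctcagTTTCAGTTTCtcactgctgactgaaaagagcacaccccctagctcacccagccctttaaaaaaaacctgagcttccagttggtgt
Its 2 matches started 104 and 85 bases before the start site, and 2.98% of the RefSeq windows held at least 1 match.

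The genes lower in members had larger fold changes. *Trappc3l*, a paralog of a vesicle-tethering subunit, had 2.14 and 4.25 CPM in members against 25.6 and 18.4 CPM (log2 fold change -2.74 ± 0.32, adjusted p = 0.0312). *Adcyap1*, which encodes the neuropeptide PACAP, had 16.5 and 22.1 CPM against 55.8 and 62.9 CPM (log2 fold change -1.60 ± 0.07, adjusted p = 3.35e-16). The receptors of neuropeptide Y were also lower, *Npy1r* with 16.5 and 21.3 CPM against 48.3 and 53.2 CPM and *Npy2r* with 13.6 and 14.0 CPM against 35.8 and 31.4 CPM. *Resp18*, a protein of secretory granules, had 24.7 and 29.7 CPM against 77.0 and 75.2 CPM.

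*Nrp2*, a receptor of class 3 semaphorins and VEGF, had 7.85 and 6.24 CPM against 23.8 and 21.5 CPM. *Cpne6*, a calcium-dependent phospholipid-binding copine, had 7.49 and 7.33 CPM against 32.2 and 22.4 CPM, and *Vat1l* 4.37 and 7.24 CPM against 22.5 and 22 CPM. *Dcn*, the matrix proteoglycan decorin, had 7.05 and 6.83 CPM against 23.8 and 20.5 CPM, and *Cyp1b1*, a cytochrome P450, 8.30 and 13.6 CPM against 31.7 and 32.9 CPM. Both member values lay below both values of the other cells in all 10, which follows largely from choosing genes by call and direction. Outside the 10, *Lgals1*, which encodes galectin-1 and was chosen after its values were seen, combined a high level with a large difference (568 and 552 CPM against 1219 and 1191 CPM, log2 fold change -1.09 ± 0.03, adjusted p = 3.97e-23).

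The injury program did not differ by the call. Of 30 genes of injury and regeneration 1 was higher, 1 lower and 28 neither. Over all genes tested 0.678% were higher and 3.59% lower. The median log2 fold change of the list was 0.08 against 0.00 over all genes tested. *Atf3*, the stress-induced transcription factor, had 1131 and 1203 CPM in members against 1147 and 1182 CPM. *Stmn2*, which regulates microtubules, had 8122 and 7847 CPM against 8792 and 8568 CPM, and *Gap43*, a growth cone protein, 2592 and 2467 CPM against 3165 and 3160 CPM, differences of -0.11 and -0.31 on the log2 scale. The gene called higher was *Nnat*, an endoplasmic reticulum proteolipid (106 and 97.6 CPM against 72.7 and 72.6 CPM), and the one called lower was *Reg1*, a secreted lectin, with 0 and 1 UMIs in members against 1.56 and 0.727 CPM. None of 9 genes of the integrated stress response, 8 p53 targets and 7 immediate early genes tested was called, and their median log2 fold changes were 0.16, 0.02 and 0.04.

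Of 9 other annexins tested, 0 were higher, and *Anxa4* (3.30 and 3.75 CPM against 6.48 and 7.59 CPM) and *Anxa10* (1.96 and 1.5 CPM against 3.71 and 2.62 CPM) were called lower, with a median log2 fold change of 0.05 over the list. Among all genes tested 0.678% were higher and 3.59% lower. *Anxa10* turned to 0.49 within the 3 clusters with most members. *Anxa2* had 2040 and 2023 CPM against 1980 and 1977 CPM, and *Anxa5* 1760 and 1836 CPM against 1765 and 1682 CPM. Among the 6 S100 proteins, many of which bind annexins, 0 were called. *S100b* had 12.3 and 15.7 CPM against 94.3 and 63.4 CPM (log2 fold change -2.46 ± 0.33), which missed the threshold (adjusted p = 0.220). The formyl peptide receptors through which annexin A1 acts were all but undetected. The 5 genes had 0 UMIs in members, 1 in the other *Sprr1a*+ cells and 3 in *Sprr1a*- cells of the CCI libraries, below the level that could be tested, and 3 UMIs correspond to 0.268 and 0.25 CPM in the members of Male-CCI and Female-CCI.

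Several markers of large-diameter and touch neurons were lower in members, but not all. Of 7 markers of the NF class (mostly myelinated neurons) 4 were lower and 0 higher, against 3.59% and 0.678% of all genes tested. Their median log2 fold change was -0.64. *Slc17a7*, the vesicular glutamate transporter 1, had 0.0892 and 0.5 CPM in members (1 and 6 UMIs) against 8.53 and 6.41 CPM, and *Pvalb*, the calcium buffer of proprioceptors, 0.178 and 1.17 CPM against 5.46 and 6.64 CPM. *Ntrk3*, the receptor of neurotrophin-3, had 17.4 and 22 CPM against 36.3 and 34.8 CPM, and *Ntrk2*, the receptor of BDNF, 10.3 and 9.99 CPM against 17.3 and 14.7 CPM. *Nefh*, the heavy neurofilament, differed less (168 and 142 CPM against 226 and 176 CPM) and was not called. Low levels were not particular to members. *Pvalb* had 0.912 and 1.26 CPM in *Crh*+ cells, and 5.22 and 3.29 CPM in *Ly6a*+ cells. *Slc17a7* had 0.745 and 1.44 CPM in *Ly6a*+ cells, and 3.41 and 2.51 CPM in *Crh*+ cells. *Ntrk3* was lower still in *Ly6a*+ cells (3.73 and 4.94 CPM) and higher in *Crh*+ cells (74.7 and 75.8 CPM). Within the 3 clusters with most members *Ntrk3* turned to 0.089 and *P2ry1*, a cLTMR marker, to 0.41 on the log2 scale.

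The counts for the other neuron classes stand beside 3.59% of all genes tested that were lower in members and 0.678% that were higher. Of 5 markers of cLTMRs (unmyelinated low-threshold mechanoreceptors) 3 were lower, namely *Th*, the enzyme tyrosine hydroxylase (0.357 and 0.5 CPM against 2.1 and 2.86 CPM), the purinergic receptor *P2ry1* and the transcription factor *Zfp521*. *Fam19a4*, a more abundant marker of this class, had 27.8 and 33.4 CPM against 27.1 and 34.3 CPM and was not called. Against the remaining *Sprr1a*+ cells alone it was called higher (log2 fold change 0.63, edgeR adjusted p = 8.61e-05), where 2 of the list were lower. Among the 5 markers of NP1 neurons, a class of itch neurons, *Sst* and *Cysltr2* were lower. *Sst*, which encodes somatostatin, had 0 UMIs in members of either library against 0.519 and 0.577 CPM in the others. *Nppb*, which encodes a natriuretic peptide of itch neurons, had 6.42 and 0.666 CPM against 12.2 and 10.7 CPM and was not called (adjusted p = 0.616). None of 5 NP2 and 2 tested NP3 markers was called. Of the 7 PEP (peptidergic) markers only *Adcyap1* was called, and of 2 PEP5 markers *Foxp2* was lower.

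The neuropeptides split by gene. *Gal*, which encodes galanin, was very high in both populations (5373 and 5966 CPM in members, 6004 and 6500 CPM in the others), as was *Nts*, which encodes neurotensin (1762 and 2048 CPM, 1816 and 1914 CPM), and neither was called. *Adcyap1*, *Sst*, *Cck* and *Grp* were lower among the 15 tested and 0 were higher, against 3.59% and 0.678% of all genes. *Grp* turned to 0.10 on the log2 scale without the 2 clusters that held no members, and to 0.21 within the 3 clusters with most members. *Calca*, the gene of CGRP, had 235 and 429 CPM against 685 and 726 CPM, and *Npy* 58.8 and 74.9 CPM against 291 and 173 CPM. The member values of both lay below those of the other cells, yet neither passed the test (edgeR adjusted p = 0.452 and 0.407).

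For the lists of receptors, transcription factors and channels, the counts are to be read against 3.59% of all genes tested that were lower in members and 0.678% that were higher. Of 17 trophic and cytokine receptors 4 were lower and 0 higher (median log2 fold change -0.29), among them *Ngfr*, the p75 neurotrophin receptor (36.1 and 36.8 CPM against 65.5 and 68.4 CPM), and *Gfra1*, a co-receptor of GDNF (42.1 and 36.0 CPM against 86.2 and 68.2 CPM). *Ret*, the signaling receptor of the GDNF family (252 and 242 CPM against 270 and 249 CPM), was not called. Within the 3 clusters that held most members (described further on), *Ngfr* and *Gfra1* turned to log2 fold changes of 0.14 and 0.10. Of 15 sensory transcription factors 5 were lower (median -0.13), including *Runx3* (0 and 1 UMIs in members) and *Etv5* (2.32 and 4.16 CPM against 10.2 and 9.27 CPM), and *Runx1*, a determinant of nonpeptidergic nociceptors, had 117 and 104 CPM against 86.2 and 91.3 CPM without reaching the fold limit.

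Of 11 voltage-gated sodium channel genes 3 were lower and 0 higher (median log2 fold change -0.35), the alpha subunit *Scn1a* and the beta subunits *Scn2b* and *Scn4b*, whereas *Scn9a*, the channel Nav1.7 of nociceptors, had 169.8 and 147 CPM against 158 and 152 CPM. Of 16 voltage-gated potassium channel genes 4 were lower (median -0.31), among them *Kcna1* (35.2 and 32.6 CPM against 52.3 and 45.4 CPM). Of 12 transduction channels *Asic1* and *Asic3*, both acid-sensing, were lower, *Asic3* with 3.21 and 2.75 CPM against 10.4 and 7.68 CPM. *Piezo2*, the touch channel (62.0 and 61.5 CPM against 81.9 and 82.0 CPM), and *P2rx3*, an ATP-gated channel of nociceptors (35.6 and 41.9 CPM against 28.1 and 33.1 CPM), were not called. Of 14 integrins *Itga6* and *Itgb5* were lower, against 3.59% of all genes tested. Within the 3 clusters with most members *Scn2b* turned to 0.50, *Scn4b* to 0.13, *Kcna4* to 0.22, *Kcnd3* to 0.13, *Kcnv1* to 0.41 and *Asic3* to 0.56 on the log2 scale, and *Kcna1* to 0.0047.

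To see whether members formed one transcriptional type, the *Sprr1a*+ cells of both CCI libraries were clustered on 2000 variable genes without the 4 genes of the rule. Members occurred in 14 of 18 clusters in Male-CCI and in 16 of 18 in Female-CCI, and no cluster was made mainly of them. Among the 15 clusters of at least 97 cells they were most frequent in one led by *Ctxn3*, *Galnt6*, *Rspo2* and *Nnat*, in which *Anxa1* itself, a gene of the rule, was also a leading gene, and where 34.9% of cells of Male-CCI and 24.8% of Female-CCI were members. A cluster led by *Krt16*, *Nupr1*, *Flnc* and *Tgfbi* held 17.1% and 23.1% members. A cluster with *Sparc*, *Gpm6b*, *Fxyd1* and *Fabp7* among its leading genes held 15.8% and 23.6%. In the last, the summed satellite glia level had a median of 29.6 CP10K, against 2.71 CP10K in the *Krt16* cluster and 1.60 CP10K in the *Ctxn3* cluster, and 9.52% of its cells were among the top Scrublet scores. Clusters of 230, 103 and 98 cells had medians of 45.0, 50.6 and 47.5 CP10K and held 14, 13 and 3 members. A cluster of 30 cells led by *Cd74*, *C1qa* and *C1qb*, genes of immune cells, held 5 members. One of 14 cells led by *Apoe* and *Fabp7* held 1. The part of glial or immune RNA in these clusters was not tested.

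These 3 clusters together held 65.4% of members in Male-CCI and 61.9% in Female-CCI, against 29.6% and 29.2% of the other *Sprr1a*+ cells. At the other end were 2 clusters without any member in either library. One, of 165 cells, was led by *Trappc3l*, *Hopx*, *S100a16* and *Npy*, and one, of 101 cells, by *Spp1*, *Car3*, *Reg3b* and *S100b*, with *Pvalb* and *Slc17a7* among its leading genes. A cluster of 334 cells led by *Crh*, a gene of the rule, held 2.41% and 3.57% members, and one of 237 cells with the NP1 markers *Nppb*, *Il31ra* and *Osmr* among its leading genes 7.41% and 4.65%. Of the 15 nearest *Sprr1a*+ cells of the same library, a member had on average 20.5% members around it in Male-CCI and 20.8% in Female-CCI, and another *Sprr1a*+ cell 9.45% and 11.4%.

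**Figure D3:**
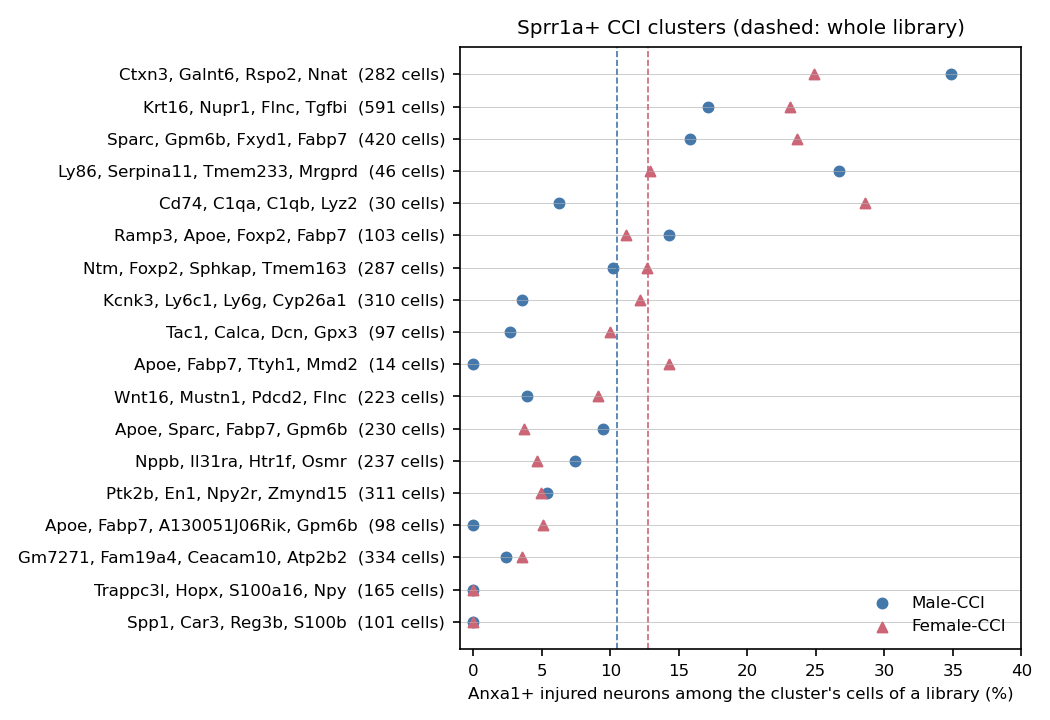
Share of cells (%) that were *Anxa1*+ injured neurons in each of 18 clusters of *Sprr1a*+ CCI cells, named by some of their leading genes, without those of the rule, with their number of cells, for Male-CCI (circles) and Female-CCI (triangles); dashed lines give the share over each library. Members spread over most clusters, 3 clusters of over 250 cells lie above both lines, and 2 clusters hold no members.

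Since members were unevenly spread over the clusters, the comparison was repeated within fewer of them, a choice made after the clusters were seen. Without the 2 clusters that held no members 407 genes were called, 69 higher and 338 lower. Within the 3 clusters with most members (121 and 167 members, 466 and 539 other cells) 25 genes were called, 14 higher and 11 lower. Of the genes called over all cells 480 could be tested there, and 305 of them kept their sign. Of the 25 named genes only *Ifit1* (118 and 249.97 CPM in members against 83.1 and 149 CPM, log2 fold change 0.66 ± 0.05, adjusted p = 5.11e-07) and *Resp18* (5.40 and 7.94 CPM against 11.3 and 11.7 CPM) were called within them. *Kcnmb4* differed there by 0.05 on the log2 scale and *Adgrf5* by 0.32, and neither was called. *Cpne6* and *Nrp2*, lower over all cells, turned to 0.55 and 0.47. This comparison rests on fewer cells, and the cause of the lower count was not tested.

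**Figure D4:**
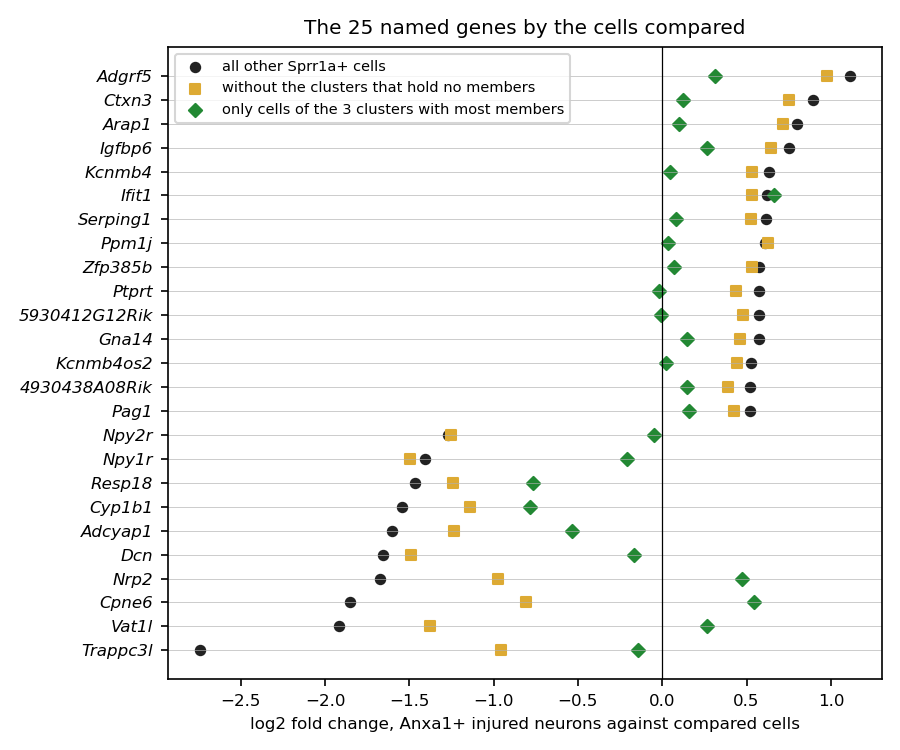
Log2 fold change of the 25 named genes between *Anxa1*+ injured neurons and the cells compared with them, from edgeR, over all other *Sprr1a*+ cells (circles), without the 2 clusters that hold no members (squares) and only within the 3 clusters with most members (diamonds). Within the 3 clusters most points move close to 0, *Ifit1* stays at 0.66, and *Cpne6*, *Nrp2* and *Vat1l* lie above 0.

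Genes called within the 3 clusters included some not named above. *Alcam*, a cell adhesion molecule, had 35.3 and 25.5 CPM in members against 21.4 and 17.0 CPM, *Cpne5*, a further copine, 42.3 and 23.7 CPM against 23.8 and 15.7 CPM, and *Cckar*, a receptor of cholecystokinin, 34.1 and 20.4 CPM against 17.3 and 14.6 CPM. *Sprr1b*, a paralog of *Sprr1a*, had 3.39 and 6.02 CPM against 1.84 and 2.30 CPM. *Cx3cr1*, the fractalkine receptor, was lower (36.2 and 21.3 CPM against 54.7 and 36.8 CPM), as was the homeobox gene *Barx2* (4.52 and 7.17 CPM against 10.9 and 13.6 CPM). These genes were picked from the 25 after their values were seen.

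Members were then set against each of the other injured populations in one fit over 4 populations. The *Ly6a*+ injured cells (194 cells) differed in the most genes, with 2861 of 13555 called (21.1%), 1209 higher in members (8.92%) and 1652 lower (12.2%). The *Crh*+ injured cells (654 cells) differed in 757 genes (5.58%), 292 higher in members (2.15%) and 465 lower (3.43%). The remaining *Sprr1a*+ cells (2576 cells) differed in 536 genes (3.95%), 83 higher (0.612%) and 453 lower (3.34%). The 3 counts share the member sums and rest on populations of unequal size.

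*Cryba2* and *Tgfbi* were called higher in members only in the comparison with *Ly6a*+ cells. *Cryba2* had 24.8 and 33.9 CPM in *Ly6a*+ cells (log2 fold change 1.99, adjusted p = 1.11e-11), and *Tgfbi* 47.7 and 54.9 CPM (0.73, adjusted p = 7.39e-07). In *Crh*+ cells the levels were 101 and 96.7 CPM for *Cryba2* and 81.9 and 78.7 CPM for *Tgfbi*, against 111 and 119 CPM and 84.0 and 81.8 CPM in members. The *Ly6a*+ cells also had less *Ppm1j* (6.71 and 9.87 CPM), *Adgrf5* (3.97 and 3.50 CPM) and *Kcnmb4* (79.5 and 73.4 CPM) than members. Of 9 genes of the integrated stress response 8 were higher in members than in *Ly6a*+ cells, against 8.92% of all genes tested. Their median log2 fold change was 1.10. Of 7 PEP markers 4 were lower, against 12.2% of all genes tested.

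Of the 10 named genes lower in members, 9 were also called lower against *Ly6a*+ cells and 9 against the remaining cells, but 0 against *Crh*+ cells. *Npy2r* was called the other way there, with 11.5 and 7.85 CPM in *Crh*+ cells against 13.6 and 14.0 CPM in members. *Resp18* had 27.7 and 25.6 CPM in *Crh*+ cells and 24.7 and 29.7 CPM in members. Other genes low in members were called lower there, such as *Slc17a7* (log2 fold change -3.27) and *Ntrk3* (-1.93), whereas *Pvalb* (-0.66) was not called. Of the cLTMR list, 4 of 4 tested genes were lower in members than in *Crh*+ cells, against 3.43% of all genes tested. Their median log2 fold change was -2.70 against 0.00 over all genes. Of the 15 genes higher in members, 8 were called against *Crh*+ cells, 11 against *Ly6a*+ cells and 11 against the remaining cells. *Ctxn3* and *Ifit1* were called in none of these 3 comparisons, with log2 fold changes against *Ly6a*+, *Crh*+ and remaining cells of 2.43, 1.30 and 0.74 for *Ctxn3* and of 0.40, 0.11 and 0.76 for *Ifit1*, so the missing calls do not show a smaller difference in each.

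The sham libraries, which the rule did not use, showed mostly the same directions in the few cells that passed it. Between the 7 and 28 such cells of Male-Sham and Female-Sham and the other *Sprr1a*+ cells of the same library, 12 and 13 of the 15 higher genes and 10 and 10 of the 10 lower genes had the sign seen after CCI. The lower genes rested on few UMIs in these cells. *Trappc3l*, *Cyp1b1* and *Npy2r* had 0 UMIs in both libraries, where only a lower sign is possible, so their direction is no separate support. *Kcnmb4* had 165 and 162 CPM against 111 and 109 CPM. *Adcyap1* had 3.62 and 13.1 CPM (2 and 16 UMIs) against 82.2 and 67.4 CPM. *Ifit1* went the other way, with 16.3 and 14.8 CPM against 22 and 27.2 CPM. *Tgfbi* had 176 and 111 CPM against 53.7 and 62.4 CPM. With 3 UMIs equal to 5.44 CPM in the cells of Male-Sham, these values are a description.

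Members also varied among themselves. *Atf3* was present in every member, with quartiles of 8.10 and 13.9 CP10K in Male-CCI and 8.46 and 14.9 CP10K in Female-CCI. *Gal* ranged from 0 to 324 and 519 CP10K, with quartiles of 5.59 and 80.4 and of 6.04 and 86.6 CP10K, so that galanin-rich and galanin-poor cells were both members. *Calca* had medians of 0.982 and 1.47 CP10K, and the tenth of members with the highest level held 57.6% and 68.6% of the summed per-cell level. *Lgals1* had medians of 1.04 and 1.85 CP10K in members against 6.35 and 7.77 CP10K in the other *Sprr1a*+ cells, with upper quartiles of 6.66 and 9.24 CP10K that reached into the range of the others.

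*Cryba2* and *Tgfbi* were present in most but not all members. A *Cryba2* UMI was found in 86.5% and 82.2% of members and in 79.2% and 77.4% of other *Sprr1a*+ cells, and after thinning to 5000 UMIs in 34.6% and 36.7% against 31.8% and 31.9%. For *Tgfbi* the shares were 82.2% and 73.3% against 68.2% and 63.9%, and after thinning 28.1% and 31.1% against 25.5% and 24.1%. In *Sprr1a*- cells a thinned *Cryba2* UMI was found in 1.20% and 2.07%. For *Tgfbi* it was found in 0.948% and 0.987%.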

How the data were processed

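The authors aligned reads to mm10 and made UMI counts with Cell Ranger (the matrix header gives 3.0.2, the submitters' processing notes 2.1.1) and analysed them in Seurat. The deposited matrices hold unnormalized UMI counts of 31053 genes. Totals were 195684124 to 237069156 UMIs per library, and 0 columns were left unused for want of a sample. Members and gene lists were chosen with earlier results of these data known. Levels are CPM of UMI counts summed over a population. Sums were compared with edgeR 4.0.16 (TMM, filterByExpr, robust quasi-likelihood, library as a block because both populations come from the same library). The main comparison had 1 residual degree of freedom, so spread was shared across genes. The fit over 4 populations also used the spread of the other populations. Genes named were the markers and gate genes, the 15 highest and 10 lowest fold changes among called genes of at least 20 CPM with the same direction in both libraries, and per list the 4 most abundant plus called genes, of which some are printed and some are not reported here. On simulated counts for the main comparison (15043 genes) edgeR recovered 95% of genes changed by 1 on the log2 scale and called 4 unchanged genes. DESeq2 1.42.0, other limits and sets of cells were alternatives. Clustering used scanpy 1.11.5 (20 principal components, 15 neighbours, Leiden resolution 1). Gene positions are from GENCODE vM21 (GRCm38, the build called mm10), and upstream windows from RefSeq, which held all 5 genes looked up.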

Additional observations from a re-analysis of the deposited data

Results flagged for a closer look

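*Sprr1a*- cells, which entered no comparison, held more *Anxa1* after injury than in the sham libraries. In Male-CCI 0.821% of 1583 such cells reached 1 CP10K (0.438 to 1.40%) and in Female-CCI 0.691% of 2027 (0.378 to 1.16%), against 0.0261% of 3835 in Male-Sham and 0.145% of 6208 in Female-Sham. This signal lay outside the comparisons and above the level in the sham libraries. An *Anxa1* UMI at any level was found in 0 of 105 and 4 of 111 *Fabp7*-high cells of the CCI libraries, whose gate did not exclude *Sprr1a*+ cells. The summed *Anxa1* level was 2.75 and 5.35 CPM in *Sprr1a*- cells of the CCI libraries and 0.138 and 1.59 CPM in those of the sham libraries.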

How the results depend on the processing

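The 642 genes called against other *Sprr1a*+ cells became 221 with DESeq2, 343 with no replicate block, 1056 with the rule applied after thinning to 5000 UMIs, 120 with sums of thinned cells, 407 without the clusters that hold no members and 25 within the 3 clusters with most members. The last 2 settings, and leaving out shared barcodes, were chosen after seeing the data. The other 9 settings gave counts between 431 and 748. Against the remaining *Sprr1a*+ cells 536 calls became 318 with DESeq2 and 345 with no replicate block. A fit of these 2 populations alone called 748 of 14760 genes tested, 129 higher and 619 lower, so this count also depends on the fit. The counts against *Ly6a*+ and *Crh*+ cells stayed within 1.5 times under each setting tried. The share of members fell to 8.58% in Male-CCI and 9.91% in Female-CCI with an *Anxa1* limit of 2 CP10K, and stayed within the counting interval otherwise. Within the 3 clusters called genes changed sign to -0.020 for *Ptprt*, -0.00675 for *5930412G12Rik*, -0.018 for *Nnat*, 0.26 for *Vat1l*, 0.55 for *Cpne6*, 0.47 for *Nrp2*, 0.49 for *Anxa10*, 0.21 for *Grp*, 0.089 for *Ntrk3*, 0.41 for *P2ry1*, 0.10 for *Gfra1*, 0.14 for *Ngfr*, 0.50 for *Scn2b*, 0.13 for *Scn4b*, 0.0047 for *Kcna1*, 0.22 for *Kcna4*, 0.13 for *Kcnd3*, 0.41 for *Kcnv1* and 0.56 for *Asic3*. Without the clusters that hold no members *Grp* changed to 0.10 and *Shox2* to 0.18. The cause was not tested. With 1 CCI library left out no test is possible, and each called gene among the 147 named genes kept its direction in the library that was left. A call over both libraries largely requires the same direction in each. Levels under 1 CPM in members rest on few UMIs, 3 UMIs being 0.268 and 0.25 CPM. Without the replicate block 15 of the 147 named genes lost their call and none changed direction.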
